A study of Mus musculus with 12 samples.

Results

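The 9 genes described here encode the B cell receptor signalling chains and other products of the B lineage, measured in prostate tumours grown in mice with or without p62. They are Cd79a, Cd79b, Ms4a1, Pax5, Blk, Cd22, Cr2, Mzb1 and Pou2af1, and the other 8 are called the partners of Cd79a. Each gene was taken from probe sets annotated with exactly 1 symbol, and where a gene has several such probe sets, the one with the highest mean over the 12 tumours stands for it. All 9 genes were found, each with 1 probe set, among 19937 genes on the array. The set was chosen by the measured difference of Cd79a between the hosts, to which its partners were added. That difference is therefore given as a description, without a test.

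The tumours arose from mouse prostate carcinoma cells of the line TRAMP-C2Re3, of which 50000 were placed in the prostate of each C57BL6 mouse and left for 60 days. A group of 6 hosts was p62 KO and a group of 6 was wild type (WT), with 1 array per tumour and each tumour from a different mouse. The protein p62, encoded by Sqstm1, is an autophagy receptor and signalling adaptor. Only the host cells of a tumour lack it, since the injected cells keep their own Sqstm1, and both groups therefore hold p62-expressing tumour cells. The age and sex of the mice are not stated in the labels, and each array measured whole tumour tissue rather than sorted B cells.

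On a B cell, membrane immunoglobulin recognises antigen but cannot signal alone. It is held in a complex with the paired chains CD79A and CD79B, whose cytoplasmic tails are phosphorylated by Src family kinases such as BLK and then recruit the kinase SYK. The transcription factors PAX5 and EBF1 drive the genes of this complex in early B cells, and the coactivator encoded by Pou2af1 works with octamer-binding factors at immunoglobulin promoters. CD79A and CD79B are needed together for the receptor to reach the cell surface, so their genes are normally expressed side by side. In tumours, B lineage cells can lie scattered in the stroma or gather with T cells in lymphoid aggregates.

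The deposited values are log2 intensities after RMA, a procedure that corrects background, normalizes arrays and summarises the probes of a probe set. Arrays were similar in centre, with medians of 6.21 to 6.44, but not in spread. In 4 tumours, p62 KO hosts 2 and 3 and WT hosts 2 and 5, the interquartile range (the distance between the upper and lower quartile of an array) was 2.15 to 2.59, against 2.70 to 2.95 in the other 8. Pairwise correlations between arrays ran from 0.935 to 0.991. Sqstm1 averaged 8.73 ± 0.39 in p62 KO hosts and 8.89 ± 0.23 in WT hosts (SD, n = 6 each), which does not test the host labels because of the tumour cells' own Sqstm1. The 9 measured genes of normal prostate secretion had list means of only 3.76 to 4.39 in p62 KO hosts and 3.81 to 4.36 in WT hosts. The 7 epithelial markers had list means of 5.98 to 6.47 in p62 KO hosts and 5.85 to 6.26 in WT hosts. Among them the keratin gene Krt8 averaged 8.12 and 8.10.

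Most of the B lineage genes lay low on these arrays. The 1027 olfactory receptor genes served as a landmark for low values, and whether any of them is expressed in these tumours was not tested. In the 12 arrays this family had medians of 4.04 to 5.06 and 95th percentiles of 5.80 to 6.70. Cd79a, Ms4a1, Pax5, Blk and Cr2 exceeded that percentile in 0 of 12 tumours, Mzb1 in 1, Cd22 in 4, Cd79b in 8 and Pou2af1 in 11. Cd79a lay at the 53.3rd to 86.3rd percentile of the olfactory genes in p62 KO hosts and at the 30.5th to 71.9th in WT hosts. Probe sets differ in how strongly they bind, so these positions locate the values and give no order of expression between genes. No detection calls were used.

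**Figure D1:**
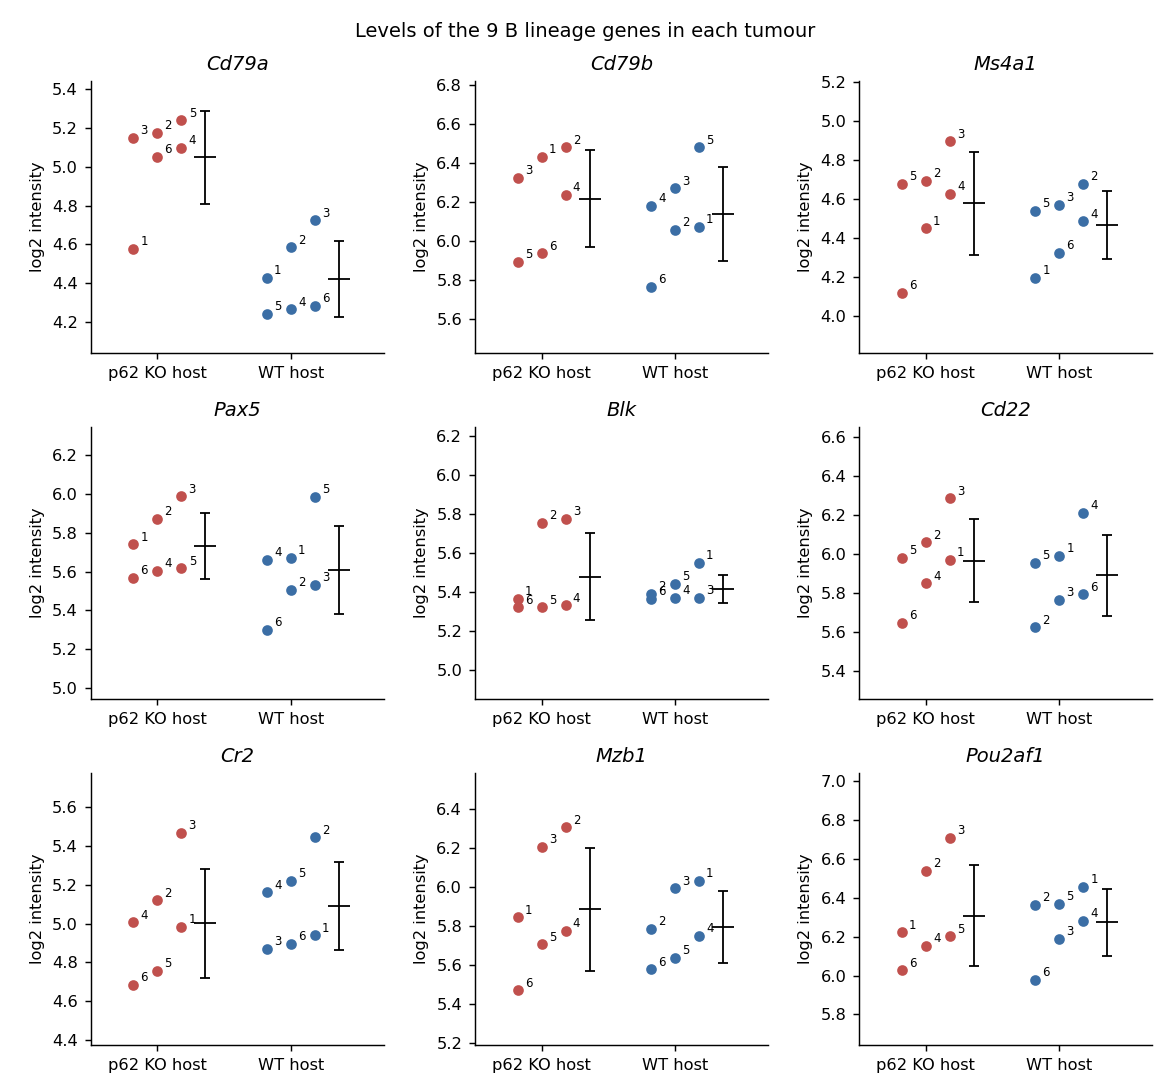
Log2 intensity (vertical axis) of each of the 9 B lineage genes in 6 tumours from p62 KO hosts and 6 from WT hosts, where each point is a tumour and each bar a group mean with its SD. For Cd79a 5 of 6 p62 KO tumours lie above all WT tumours. The group ranges of each of the 8 partners overlap, and for Blk 2 p62 KO tumours lie above and 4 below all WT tumours.

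Cd79a, the gene of the signalling chain Ig-alpha, was higher in tumours of p62 KO hosts. Its log2 level was 4.58 in p62 KO host 1, 5.17 in host 2, 5.15 in host 3, 5.10 in host 4, 5.24 in host 5 and 5.05 in host 6. In WT hosts it was 4.43, 4.58, 4.73, 4.27, 4.24 and 4.28 in mice 1 to 6. The groups overlapped through a single p62 KO tumour: host 1 lay below WT hosts 2 and 3, and the other 5 p62 KO tumours lay above every WT tumour. The means were 5.05 ± 0.24 and 4.42 ± 0.20 (SD, n = 6 each), a difference of 0.63 on the log2 scale or 1.54-fold. In whole tumours, fewer cells of a type and less RNA per cell cannot be told apart, which holds for every value given here. Across the array, the groups did not overlap at 0.145% of the 28192 probe sets, with p62 KO hosts higher at 0.0709%, and none of the 9 genes was among them. Leaving out p62 KO hosts 2 and 3, which have narrow arrays, the difference was 0.57.

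The sequence directly upstream of the Cd79a start site is shown with those of Cd22 and Pou2af1, because the question is whether these genes moved together and factors of the B lineage act through such sequences. The sequences are the 250 bases before the start in RefSeq's GRCm38.p6 annotation, which held 5 of the 9 genes (Cd79a, Pax5, Cd22, Cr2 and Pou2af1), written 5′ to 3′ on the gene's strand. They lie at chr7:24897247-24897496 (plus strand) for Cd79a, chr7:30879029-30879278 (minus strand) for Cd22 and chr9:51213440-51213689 (plus strand) for Pou2af1. Capitals mark matches on either strand to the octamer ATTTGCAT, the EBF1 motif (TCCC and GGGA with any 2 bases between them), the PU.1 core GAGGAA or the E-box CANNTG.

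Cd79a: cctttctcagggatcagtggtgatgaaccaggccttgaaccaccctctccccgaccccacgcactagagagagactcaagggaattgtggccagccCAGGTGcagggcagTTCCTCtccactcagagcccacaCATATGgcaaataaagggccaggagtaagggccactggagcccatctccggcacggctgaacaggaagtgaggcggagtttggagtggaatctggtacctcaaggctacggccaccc

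Cd22: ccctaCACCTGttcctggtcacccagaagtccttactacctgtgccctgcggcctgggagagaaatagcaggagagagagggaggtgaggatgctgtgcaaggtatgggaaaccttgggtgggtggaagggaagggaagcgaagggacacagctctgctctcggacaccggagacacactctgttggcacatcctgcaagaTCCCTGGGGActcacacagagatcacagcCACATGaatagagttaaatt

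Pou2af1: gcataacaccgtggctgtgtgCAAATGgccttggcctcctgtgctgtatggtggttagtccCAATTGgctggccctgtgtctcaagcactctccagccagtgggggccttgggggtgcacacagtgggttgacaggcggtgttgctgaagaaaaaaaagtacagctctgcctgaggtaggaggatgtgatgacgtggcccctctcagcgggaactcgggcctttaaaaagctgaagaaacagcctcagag

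The Cd79a sequence held 1 PU.1 core and 2 E-boxes, Cd22 held the EBF1 motif and 2 E-boxes, and Pou2af1 held 2 E-boxes. None of the 4 motifs overlaps another in these 3 sequences. Of 32851 mouse promoter windows of the same length, 1.60% hold the octamer, 0.779% the EBF1 motif, 23.3% the PU.1 core and 66.2% an E-box. Among the 5 B lineage genes with a sequence, 0 held the octamer, 1 the EBF1 motif (Cd22), 1 the PU.1 core (Cd79a) and 5 an E-box. These counts describe exact matches to letters in a window and show no binding. A site that departs from these letters stays in lower case, so a missing match does not show that a gene lacks a site.

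Cd79b, the gene of Ig-beta and obligate partner of Cd79a in the receptor, did not differ between the hosts beyond the spread of the tumours. Its log2 level ran from 5.89 through a median of 6.28 to 6.48 in p62 KO hosts and from 5.76 through 6.13 to 6.48 in WT hosts. The highest tumours of both groups stood at the same level, and the groups overlapped over nearly all of their range. The difference was 0.08 (SE 0.14, 95% interval -0.21 to 0.37; limma, adjusted p = 0.994). Taken within each tumour, Cd79a minus Cd79b averaged -1.17 ± 0.41 in p62 KO hosts and -1.72 ± 0.30 in WT hosts (SD, n = 6 each). That within-tumour contrast differed by 0.55 between hosts, a value that carries the known difference of Cd79a and was not tested.

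No partner passed the test between hosts: 0 of 8 had an adjusted p under 0.05 in limma, and 0 of 8 had an unadjusted p under 0.05. Over the array the test called 1 of 28192 probe sets, or 0.00355%, which is none of the partners, and 675 (2.39%) had an unadjusted p under 0.05. For Cd79a no test is read, because it was chosen by this difference. Against that background, a count of 0 in 8 says nothing particular about the partners.

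Among the other surface proteins, Ms4a1 encodes CD20, a membrane protein of mature B cells. Its log2 level was 4.12 to 4.90 (median 4.65) in p62 KO hosts and 4.20 to 4.68 (median 4.51) in WT hosts. p62 KO host 6 was the lowest of all 12 tumours and host 3 the highest, so the WT range lay inside the p62 KO range. The difference was 0.11 (SE 0.13, 95% interval -0.17 to 0.39; limma, adjusted p = 0.994).

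Cd22, an inhibitory lectin of the B cell surface that recruits phosphatases to the receptor, stood at 5.65 to 6.29 (median 5.98) in p62 KO hosts and 5.62 to 6.21 (median 5.87) in WT hosts. The difference was 0.08 (SE 0.12, 95% interval -0.19 to 0.34). Cr2 encodes CD21, the complement receptor that lowers the threshold of the B cell receptor and is also found on follicular dendritic cells. Its level was 4.68 to 5.47 (median 4.99) in p62 KO hosts and 4.87 to 5.44 (median 5.05) in WT hosts. It was the only partner with a lower mean in p62 KO hosts, by -0.09 (SE 0.14, 95% interval -0.39 to 0.22). Both genes overlapped widely between the groups, with an adjusted p of 0.994 in limma for each.

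Blk, the Src family kinase of the receptor, spanned the narrowest range of the 9 genes. Its level was 5.32 to 5.78 (median 5.35) in p62 KO hosts and 5.36 to 5.55 (median 5.38) in WT hosts. The upper end of the p62 KO range was set by hosts 2 and 3, at 5.75 and 5.78, whereas the other 4 p62 KO tumours lay at or below the lowest WT tumours. The mean difference was 0.06 (SE 0.10, 95% interval -0.16 to 0.29; limma, adjusted p = 0.994), and without those 2 tumours it was -0.08.

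The 2 nuclear factors of the set gave similar pictures. Pax5, which commits progenitors to the B lineage, stood at 5.57 to 5.99 (median 5.68) in p62 KO hosts and 5.30 to 5.98 (median 5.60) in WT hosts, a difference of 0.12 (SE 0.12, 95% interval -0.13 to 0.38). Pou2af1, the octamer coactivator, stood at 6.03 to 6.71 (median 6.21) and 5.98 to 6.46 (median 6.32), a difference of 0.04 (SE 0.13, 95% interval -0.24 to 0.31). For Pou2af1 the higher mean but lower median of the p62 KO hosts came from hosts 2 and 3, at 6.54 and 6.71. Neither gene passed the test (limma, adjusted p = 0.994 for both).

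Mzb1, a chaperone of the endoplasmic reticulum in marginal zone B cells and plasma cells, was 5.47 to 6.31 (median 5.81) in p62 KO hosts and 5.58 to 6.03 (median 5.77) in WT hosts. The 2 highest of all 12 tumours were again p62 KO hosts 2 and 3, at 6.31 and 6.21. The difference was 0.09 (SE 0.14, 95% interval -0.22 to 0.40; limma, adjusted p = 0.994).

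Over the 8 partners the median difference was 0.08, with 7 of 8 higher in p62 KO hosts, beside a median of 0.02 over all probe sets, of which 57.2% were higher. Without p62 KO hosts 2 and 3 the direction turned: the partners' median was -0.05 and 2 of 8 were higher, while all probe sets had a median of -0.02. That omission keeps the narrow arrays of WT hosts 2 and 5. The olfactory receptor genes went from a median of 0.02 to -0.19 under it, with 83 of 1027 higher. A shift of low-level genes under this omission is therefore not particular to the partners, and the gene lists below use the same omission.

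**Figure D2:**
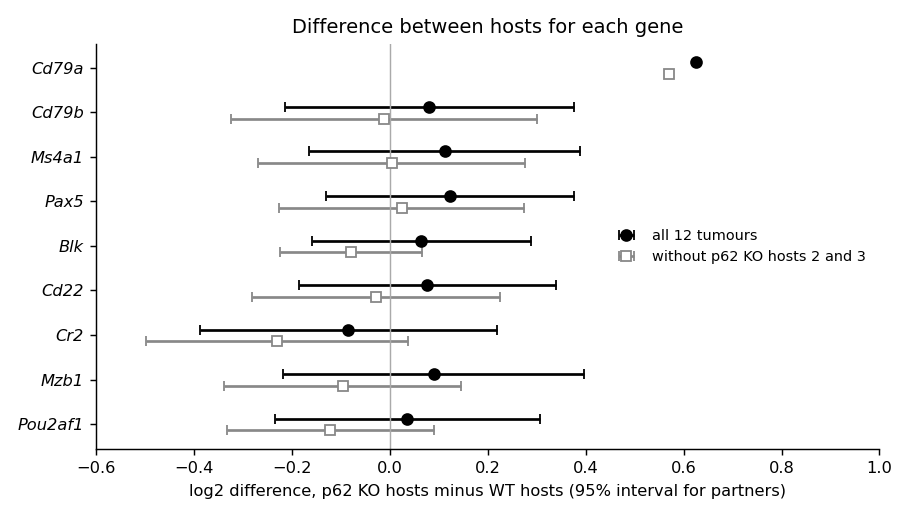
Difference in log2 intensity, p62 KO hosts minus WT hosts (n = 6 each), for the 9 B lineage genes, over all 12 tumours (filled) and without p62 KO hosts 2 and 3 (open). Bars are 95% intervals from limma for the 8 partners, whose differences over all tumours run from -0.09 to 0.12, and Cd79a (0.63) has none because it was chosen by this difference.

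No partner passed the adjusted test of following Cd79a from tumour to tumour, though Spearman rho for Ms4a1 had a permutation p under 0.05. To keep the host difference out of this comparison, each level was taken relative to the mean of its host group, and tumours were permuted within host groups 100000 times (two-sided). A total of 8 relations were computed, and their permutation p-values are not adjusted. An adjusted p was taken from a separate test, a limma slope on Cd79a over all probe sets. By that slope 0 of 28191 probe sets passed an adjusted p under 0.05 (0%) and 413 (1.47%) had an unadjusted p under 0.05. The adjusted p was 1.00 for each of the 8 partners.

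Cd79b, whose product pairs with that of Cd79a, had a Pearson r of -0.20 (permutation p = 0.556) and a Spearman rho of -0.20 (permutation p = 0.564) with Cd79a over 12 tumours. Tumours with more Cd79a signal than their group mean were found both above and below the mean of Cd79b. The value was -0.18 without p62 KO hosts 2 and 5, the 2 tumours farthest from the median of Cd79a, and it was -0.40 within p62 KO hosts (exact permutation p = 0.542) and 0.04 within WT hosts (exact permutation p = 0.928).

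The highest value among the partners was that of Ms4a1, with r = 0.39 (permutation p = 0.245) and rho = 0.62 (permutation p = 0.0424, unadjusted and 1 of 8 relations). Its r was 0.40 within p62 KO hosts, 0.39 within WT hosts and 0.33 without p62 KO hosts 2 and 5. Of the 19936 other genes, 5.32% had a higher r with Cd79a than Ms4a1. Mzb1 came next, with r = 0.33 (permutation p = 0.363) and rho = 0.36 (permutation p = 0.273). Its r was 0.17 within p62 KO hosts, 0.69 within WT hosts (exact permutation p = 0.136) and 0.36 without the 2 farthest tumours, and 8.41% of genes ranked above it.

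For the remaining partners, between 21.1% and 79.6% of the other genes had a higher r with Cd79a. Blk and Pou2af1 had r of 0.20 and 0.19 (permutation p = 0.696 and 0.614), rho of 0.14 and 0.16 (permutation p = 0.672 and 0.633) and r without the 2 farthest tumours of 0.22 and 0.18. Cr2 had r = 0.01 (permutation p = 0.978), rho = -0.08 (permutation p = 0.807) and 0.10 without those tumours. Pax5, a direct activator of Cd79a in B cells, had r = -0.14 (permutation p = 0.659) and rho = -0.13 (permutation p = 0.695), with -0.15 without them. Cd22 had r = -0.20 (permutation p = 0.549) and rho = -0.24 (permutation p = 0.481), with -0.28 without them. The sign of r was the same within both host groups for Ms4a1, Mzb1 and Pou2af1 only, and within WT hosts Cd22 reached -0.63 (exact permutation p = 0.186).

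**Figure D3:**
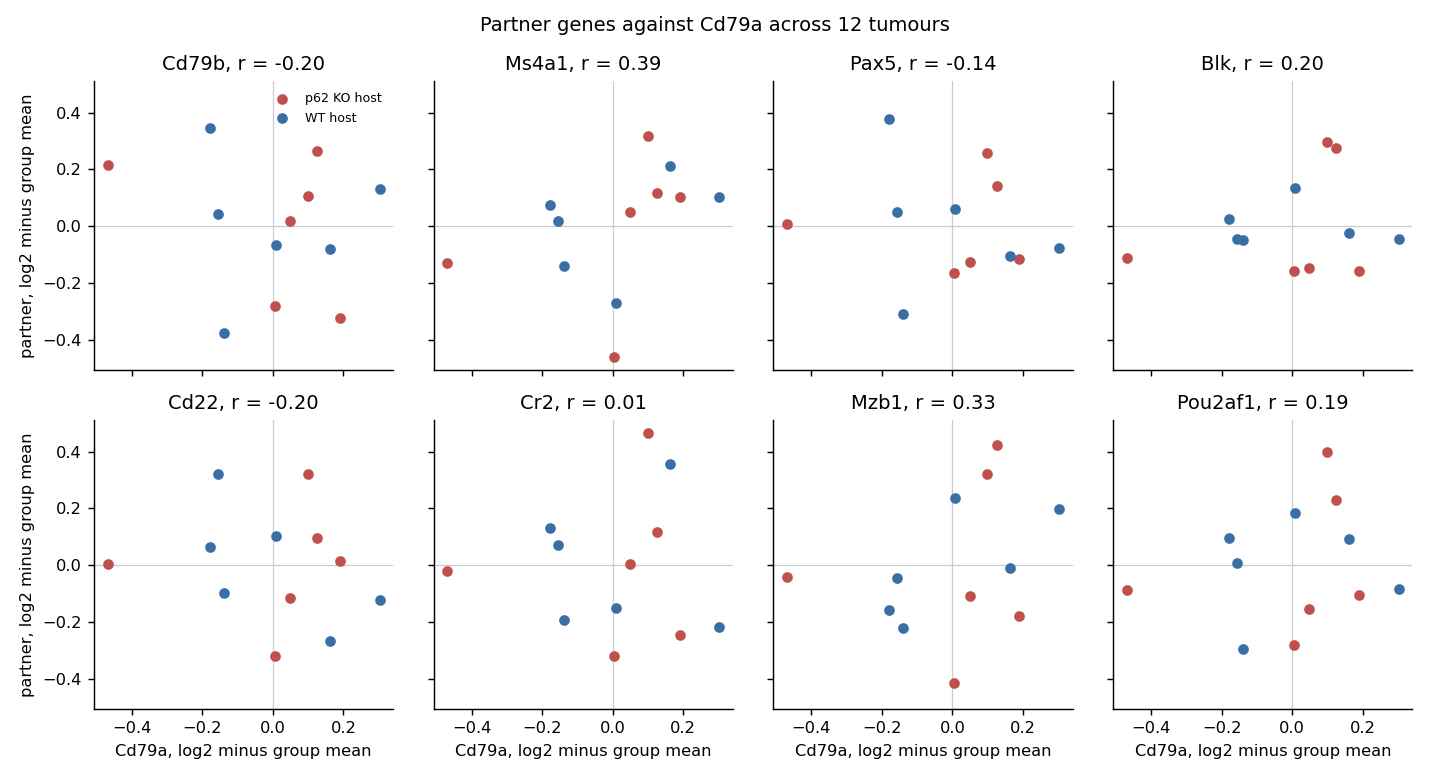
Log2 level of each partner (vertical axis) against that of Cd79a (horizontal axis), both relative to the host group mean, in 12 tumours coloured by host. The clouds have r from -0.20 (Cd79b) to 0.39 (Ms4a1) and show no shared slope.

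The median r of the 8 partners with Cd79a was 0.10, with 5 of 8 positive. Over all probe sets the median was 0.02, the quartiles were -0.15 and 0.18, and 53.4% were positive. Over the olfactory receptor genes, the median was 0.11 and 77.7% were positive. Ms4a1, Mzb1, Blk and Pou2af1 lay above the upper quartile of all probe sets, and Cd79b and Cd22 below the lower. Pax5 and Cr2 lay between.

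**Figure D4:**
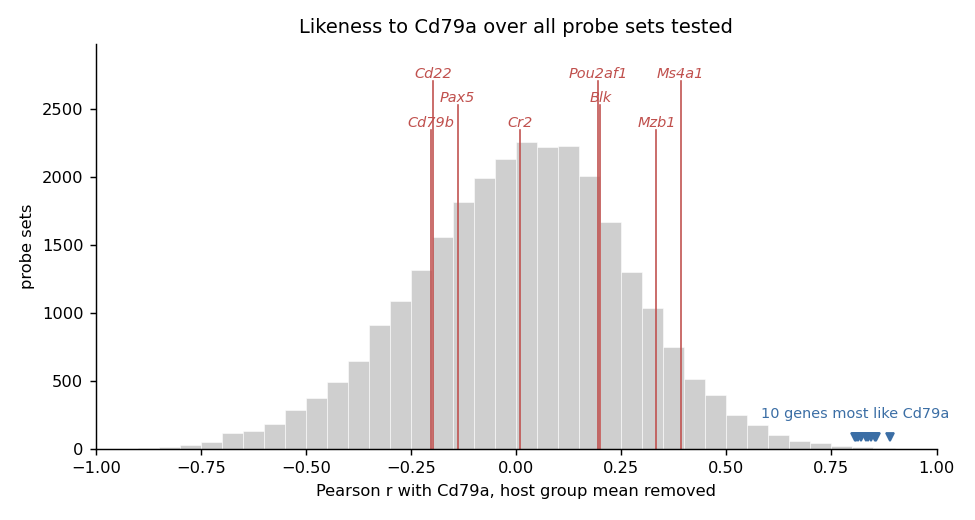
Distribution of the Pearson r with Cd79a over 28191 probe sets (levels relative to the host group mean, 12 tumours; vertical axis, number of probe sets), with the 8 partners marked. Median r is 0.02 for all probe sets and 0.10 for the partners.

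The 10 genes with the pattern most like that of Cd79a over the 12 tumours, by group-centred r, were 1700037H04Rik (0.89), Hnrnpl (0.86), Tjap1 (0.85), Zmynd19 (0.84), Aurka (0.84), Neu1 (0.83), Map1lc3a (0.82), Rab5if (0.81), Rpusd2 (0.81) and Gm4750 (0.81). None of them is in the lists of B cell genes used here. They include the splicing factor gene Hnrnpl, the mitotic kinase gene Aurka, the lysosomal sialidase gene Neu1 and the autophagy gene Map1lc3a. Each was picked as an extreme of many genes, and their limma slopes had an adjusted p of 1.00. Their differences between hosts lay between -0.20 and 0.20, beside 0.63 for Cd79a.

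Among themselves, the partners varied together across tumours. All 28 pairs among the 8 partners had a positive group-centred r, from 0.38 to 0.88 with a median of 0.58. Blk and Pou2af1 were the closest pair, with r = 0.88 and rho = 0.92 (permutation p = 1e-05, the smallest the permutations can give, and 7e-05) and r = 0.68 without the 2 tumours farthest from the median of Blk. Pax5 and Pou2af1 had r = 0.79 (permutation p = 0.0015) and rho = 0.91 (permutation p = 0.00036), with 0.88 without the 2 tumours farthest from the median of Pax5. Cd79b and Pax5 had r = 0.79 (permutation p = 0.006) and rho = 0.79 (permutation p = 0.00665), and 0.71 without the 2 farthest from the median of Cd79b. These p-values are not adjusted over the 36 pairs of the 9 genes.

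This common movement was shared with a large part of the array. A limma slope on Blk called 3 of the 8 other B lineage genes (Pax5, Mzb1 and Pou2af1), beside 53.3% of 28191 probe sets. A slope on Pou2af1 called 4 of 8 (Pax5, Blk, Cr2 and Mzb1), beside 49% of probe sets. A slope on Cr2 called Ms4a1 and Pou2af1, beside 31.1% of probe sets, and a slope on Pax5 called Cd79b and Pou2af1, beside 11.8%. Cd79a was called by none of them. Slopes on Cd79b, Ms4a1, Cd22 and Mzb1 called 0 of 8 and 0% of probe sets, while 3746, 4557, 4153 and 9079 probe sets had an unadjusted p under 0.05. Except for the slope on Pax5, the share of B lineage genes called was near or below that of all probe sets.

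The level of the partners went with the spread of the arrays, for some of them only through p62 KO hosts 2 and 3. Group-centred r between a gene's level and the interquartile range of its array was -0.90 for Blk (permutation p = 0.0122), -0.89 for Pou2af1 (permutation p = 0.00133), -0.80 for Cr2 (permutation p = 0.00234) and -0.75 for Pax5 (permutation p = 0.00241). The corresponding rho were -0.89, -0.88, -0.83 and -0.82, and r without p62 KO hosts 2 and 3 was -0.43, -0.65, -0.65 and -0.68. Mzb1, Ms4a1, Cd22 and Cd79b had r of -0.66, -0.57, -0.53 and -0.53 (permutation p = 0.0612, 0.0955, 0.0948 and 0.0913). Leaving out p62 KO hosts 2 and 3, these were 0.083, -0.23, -0.098 and -0.43. Cd79a had r = -0.07 (permutation p = 0.89), and 0.39 without p62 KO hosts 2 and 3. A limma slope on the interquartile range called Pax5, Blk, Cr2, Mzb1 and Pou2af1, or 5 of 9 genes, beside 62.2% of all probe sets. Olfactory receptor genes had a median r of -0.84 with it.

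With the interquartile range as a covariate, the r of the 28 partner pairs had a median of 0.19, ran from -0.45 to 0.74 and was positive in 19. The slopes on each of the 9 genes then called 0 of the others and 0% of probe sets, with 642 to 1776 probe sets at an unadjusted p under 0.05. Among the 8 tumours outside the 4 narrow arrays, the pairs had a median r of 0.44 and 27 of 28 were positive. The pair of Cd79b and Pax5 kept 0.70 with the covariate and 0.69 in those 8 tumours, and Blk and Mzb1 had 0.74 and 0.58. The 8 pairs of Cd79a with a partner had a median of 0.11 with the covariate and -0.18 in the 8 tumours. What part of the partners' common movement belongs to the spread of the arrays was not tested.

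**Figure D5:**
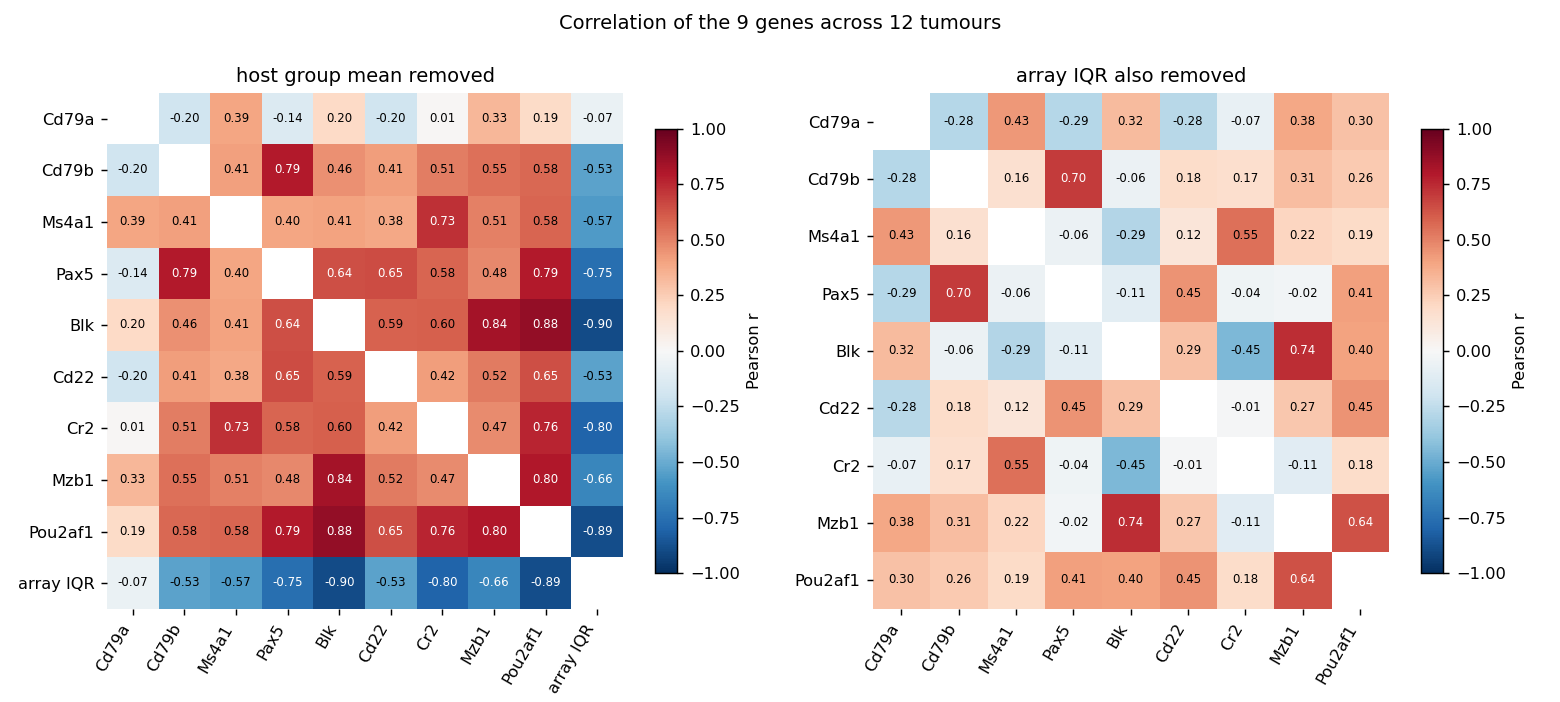
Pearson r between each pair of the 9 genes over 12 tumours, levels relative to the host group mean, without (left) and with (right) the interquartile range of the arrays as a covariate. Without it the 28 partner pairs are all positive (0.38 to 0.88) and the row of Cd79a runs from -0.20 to 0.39, and with it the partner pairs run from -0.45 to 0.74.

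No gene of receptor signalling passed the test between hosts. In the list of receptor signalling genes, 22 of 25 were measured, 14 were higher in p62 KO hosts, 0 passed the test and the median difference was 0.02. SYK, the kinase recruited by the CD79 tails, had a gene level of 6.72 ± 0.12 in p62 KO hosts and 6.71 ± 0.31 in WT hosts (SD, n = 6 each), a difference of 0.01. The kinase gene Btk differed by -0.02 (SE 0.28) and the adaptor gene Blnk by 0.14 (SE 0.15). The 2 genes with an unadjusted p under 0.05 were Pirb, an inhibitory receptor shared with myeloid cells (0.39, SE 0.11), and Pik3cd, a lipid kinase of lymphocytes (0.23, SE 0.09), and neither passed after adjustment in limma. Without p62 KO hosts 2 and 3, 21 of the 22 were higher and the median was 0.20, beside a median of -0.02 over all probe sets. Macrophage markers had the same median of 0.20 under that omission, with 11 of 11 higher, while 2 of 8 partners were higher. The rise was thus not particular to receptor signalling genes, and its cause was not tested.

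Of 16 B lineage transcription factors, all were measured, 11 were higher, 0 passed and the median was 0.03. EBF1, which acts with PAX5 on Cd79a, had equal gene means of 8.73 in both groups (SD 0.37 and 0.22), and Spib differed by 0.02 (SE 0.10). Of 31 surface and maturation genes 28 were measured, among which 24 were higher with a median of 0.09 and 0 passed. Without p62 KO hosts 2 and 3, 14 of these 28 were higher and the median was -0.01. The 4 with the smallest unadjusted p, none past the adjusted threshold in limma, were Cd37, a tetraspanin gene (0.17, SE 0.08), Ralgps2 (-0.27, SE 0.13), Dntt, the polymerase of receptor gene joining (0.29, SE 0.14), and Cd24a, a glycoprotein of many immature cells (-0.45, SE 0.25).

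No immunoglobulin or plasma cell gene passed the test between hosts. Of 11 immunoglobulin genes, 6 were higher and 0 passed, with a median of 0.02, and without p62 KO hosts 2 and 3, 2 were higher with a median of -0.12. Ighm, the heavy chain of IgM that CD79A and CD79B escort, was 6.65 ± 0.48 and 6.46 ± 0.25 (SD, n = 6 each), a difference of 0.19 (SE 0.20). Of 15 plasma cell genes 8 were higher and 0 passed, with a median of 0.02, and without those 2 tumours 4 were higher with a median of -0.052. Jchain, which joins secreted antibody chains, spanned 3.12 log2 units over the 12 tumours, more than any of the 9 genes (0.45 to 1.00). Its means were 4.88 ± 0.62 and 5.33 ± 1.15 (SD, n = 6 each), and its highest tumour, at 7.15, was WT host 1.

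Signals that attract and maintain B cells were measured for 14 of 16 genes, of which 12 were higher with a median of 0.11 and 0 passed. Without p62 KO hosts 2 and 3, 6 of 14 were higher and the median was -0.03. Cxcl13, the chemokine of B cell follicles, was lower by -0.25 (SE 0.26), and Tnfsf13b, the survival factor BAFF, by -0.10 (SE 0.15). Ltb, a lymphotoxin of lymphoid tissue, was higher by 0.21 (SE 0.12). None of these passed the test in limma.

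Markers of other cells were set beside the Cd79a difference. Of 13 measured T cell markers 5 were higher with a median of -0.01, of 9 NK cell markers 6 with 0.02, and of 7 plasmacytoid dendritic cell markers 5 with 0.03. Macrophage markers were higher for 9 of 11 (median 0.13) and neutrophil markers for 9 of 10 (median 0.37), with 0 calls in either list. The mean level of the 10 neutrophil markers was 5.50 to 6.27 in p62 KO hosts and 5.34 to 5.85 in WT hosts, and 4 of them had an unadjusted p under 0.05. Across tumours within host groups their median r with Cd79a was -0.02. Their median difference without p62 KO hosts 2 and 3 was 0.17, with 6 of 10 higher. Without those 2 tumours, the medians were -0.10 for T cell markers (1 of 13 higher), -0.06 for NK cell markers (1 of 9), -0.03 for plasmacytoid dendritic cell markers (3 of 7) and 0.20 for macrophage markers (11 of 11). Under the same omission the olfactory receptor genes had a median of -0.19 (83 of 1027 higher) and all probe sets -0.02. Whether these cells have a part in the Cd79a difference was not tested.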

How the data were processed

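Tumours from 6 p62 KO and 6 WT hosts were measured on 1 single-colour array each. Total RNA was amplified and labelled with biotin, per the labels. The deposited values are log2 intensities, for which the submitters' processing notes name RMA without a version. Of 34760 rows, 6568 without a gene at the low end of the identifiers were taken as controls, and 28192 probe sets were tested. Symbols came from the platform annotation, with 1 symbol for 21640 probe sets, several for 1321 and none for 5231, and only single-symbol probe sets were named. Precision is limited by the number of arrays, which have no read depth. No scan date or batch is given in the labels, so no batch could be examined beyond the spread of the arrays.

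The host comparison was fitted in limma 3.58.1 under R 4.3.3, with lmFit and eBayes (two-sided, Benjamini-Hochberg over all tested probe sets, threshold 0.05). Slopes on a gene's level had the host group as a covariate. Correlations used levels minus the host group mean, with permutations in numpy 2.4.6 and scipy 1.17.1 (Python 3.11.15), exact within a single host group. The limma fits of the host contrast and of a slope were tested on simulated data. The 9 genes and the gene lists were chosen with earlier results of these data known, among them the difference of Cd79a. The text names the 9 genes, Sqstm1, the 10 genes most like Cd79a, preset anchor genes, and up to 4 genes per list by unadjusted p and 3 by r. Alternatives covered scaling, filters, weights, pairing and left-out tumours. Slopes on the other members and on the interquartile range, partner pairs with that range as a covariate, and list medians without p62 KO hosts 2 and 3 were added after seeing the data. Promoter sequences are from RefSeq (GRCm38.p6). The growth protocol in the labels also names hosts lacking both p62 and IL-6, which are not analysed here.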

Additional observations from a re-analysis of the deposited data

Results flagged for a closer look

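Groups of 6 tumours were screened for a single tumour far from the other 5, by the gap to its nearest neighbour as a share of the group's range (Dixon's critical value 0.625). Of 100 groups examined 4 met this, where chance gives about 1 in 20, and of the 18 groups of the B lineage genes 1 did.

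Cd79a in p62 KO host 1 was 4.58, below the other p62 KO tumours at 5.05 to 5.24. Without this tumour the difference of Cd79a between hosts was 0.72 instead of 0.63, and r between Cd79a and Cd79b was 0.04 instead of -0.20. In the same tumour Neu1 was 6.30 beside 6.59 to 6.71 in the other 5, and Gm4750 was 7.92 beside 8.22 to 8.33, both genes having been picked for their likeness to Cd79a. The leukocyte phosphatase gene Ptprc was 8.70 in WT host 2, below the other WT tumours at 9.51 to 10.0.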

How the results depend on the processing

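For the difference between hosts, Cd79a was 0.57 with quantile normalization and without p62 KO hosts 2 and 3. It was also 0.57 without those and WT hosts 2 and 5. With each tumour left out in turn it stayed between 0.59 and 0.72. Over the same omissions the range was 0.01 to 0.15 for Cd79b, 0.05 to 0.20 for Ms4a1, 0.06 to 0.20 for Pax5, 0.0040 to 0.09 for Blk, 0.01 to 0.14 for Cd22, -0.18 to -0.01 for Cr2, 0.0044 to 0.17 for Mzb1 and -0.045 to 0.091 for Pou2af1, which turned without p62 KO host 2, p62 KO host 3 or WT host 6. Without p62 KO hosts 2 and 3 the difference turned for Cd79b (-0.013), Blk (-0.080), Cd22 (-0.028), Mzb1 (-0.097) and Pou2af1 (-0.12). Without those and WT hosts 2 and 5 it was -0.079 for Blk, -0.079 for Cd22, -0.14 for Mzb1 and -0.075 for Pou2af1. With array weights it was -0.074 for Blk, -0.057 for Cd22, -0.097 for Mzb1 and -0.11 for Pou2af1, and with the interquartile range as a covariate it was -0.018 for Pou2af1. No partner reached an adjusted p under 0.05 in limma under any alternative run, the lowest being 0.65.

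For the correlation with Cd79a, leaving out each tumour gave -0.39 to 0.036 for Cd79b, 0.34 to 0.56 for Ms4a1, -0.31 to 0.062 for Pax5, 0.04 to 0.33 for Blk, -0.34 to -0.08 for Cd22, -0.14 to 0.18 for Cr2, 0.24 to 0.44 for Mzb1 and 0.11 to 0.30 for Pou2af1. Pooling the tumours without removing group means turned Cd79b (0.041), Pax5 (0.20), Cd22 (0.058) and Cr2 (-0.15). Within WT hosts the sign turned for Cd79b (0.043), Blk (-0.10) and Cr2 (-0.077), and within p62 KO hosts for Pax5 (0.054) and Cd22 (0.15). Without p62 KO hosts 2 and 3 it turned for Blk (-0.22), Cr2 (-0.23) and Pou2af1 (-0.039), and without WT hosts 2 and 5 as well it was -0.15, -0.54 and -0.032. Quantile normalization gave -0.25 for Cr2 and -0.32 for Pou2af1, a common median per array gave -0.19 for Cr2, and the interquartile range as a covariate -0.072 for Cr2. Spearman's rho was -0.084 for Cr2 and, at 0.62, was past an unadjusted permutation p of 0.05 for Ms4a1. The cause of these turns was not tested.

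The labels do not say that equal mouse numbers pair the tumours. Deviations of same-numbered tumours correlated at 0.14, 0.37, -0.55, 0.37, -0.54 and 0.34, values of mixed sign that cannot decide whether the mouse numbers pair them. With the number as a replicate block, r with Cd79a was -0.47 for Ms4a1, -0.17 for Blk, -0.63 for Cr2 and -0.19 for Pou2af1, which turned, and -0.69 for Cd79b, -0.53 for Pax5, -0.38 for Cd22 and 0.11 for Mzb1, which kept their sign. With that block, 0 probe sets were called between hosts. That count was 1 in the reported test. It was also 0 with dim probe sets left out, without p62 KO hosts 2 and 3, and with all rows of the table, it ran from 0 to 1 over the single omissions, and 675 probe sets had an unadjusted p under 0.05. The slope on Cd79a called 0 in every omission, and 413 had an unadjusted p under 0.05. Of the 9 genes only Pou2af1 passed the filter on dim probe sets, and averaging probe sets changed none, since each has 1. The number of tumours limits the precision to the intervals given for each partner.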
